A study of Mus musculus with 12 samples.

Results

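Liver RNA of mice given triptolide was compared with liver RNA of mice given saline, across all genes of the deposited table. The comparison took 8 of the 12 libraries of the series, the 4 labelled MTP and the 4 labelled Control, chosen by their treatment label alone. All were healthy male Kunming mice, an outbred stock, 7 to 8 weeks old, and were dosed by gavage once a day for 7 days. The Control group received saline and the MTP group triptolide at 300 μg/kg. The remaining 4 libraries (MTP + CR, the same triptolide with crocin at 100 mg/kg) were not compared here. They did enter the choice of genes tested, the scaling of the counts and the estimate of the spread between livers. The labels number the livers as replicates within a group, and the study calls them independent tissue samples without linking each library to a separate mouse, so p-values measure the spread between these libraries. As a model the data hold 1 dose, 1 time and whole liver tissue, and whether the saline of the Control group contained the solvent used to dissolve triptolide is not given in the sources used here.

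Triptolide is a diterpenoid triepoxide from the vine Tripterygium wilfordii. It binds XPB, the DNA translocase encoded by Ercc3 within the general transcription factor TFIIH, which opens promoter DNA so that RNA polymerase II can begin a transcript, and its use is limited by injury to the liver among other organs. Hepatocytes make most plasma proteins, synthesise and burn lipids, detoxify drugs through cytochrome P450 and conjugating enzymes, and turn nitrogen into urea.

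The 8 libraries held 15623775 to 18430566 counts. Levels are given as CPM (the usual depth-scaled count unit, here of the TMM-scaled library), always in the order of replicates 1 to 4, and a gene was called when edgeR's quasi-likelihood test gave a Benjamini-Hochberg adjusted p under 0.05 and the fold change exceeded 1.5. The tissue label was borne out by its defining markers: albumin (Alb) alone took 8.24% ± 2.68 (SD, n = 4) of the Control counts. In bulk tissue, fewer cells of a type and less RNA per cell cannot be told apart.

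Of 15197 genes tested, 397 were higher in MTP livers (2.61%) and 423 were lower (2.78%), 5.4% in all. The changes were large: 352 of the called rises and 385 of the called falls exceeded 2-fold, and 34 rises and 32 falls exceeded 16-fold. The median log2 fold change was 1.67 among the rises and −1.83 among the falls, against 0.02 over all genes tested. In 726 of the 820 called genes the values of the 4 MTP livers and the 4 Control livers did not overlap, which was also the case for 14.7% of all genes tested. Falls outnumbered rises among abundant transcripts. Above 1000 CPM, 13 of 106 genes were lower (12.3%) and 2 were higher (1.89%), with a median log2 fold change of −0.63, while between 1 and 10 CPM 169 of 5393 genes were higher and 145 lower. Long noncoding RNAs were called more often (9.43% of 965) than protein-coding genes (5.38% of 12970); this difference in share was not tested.

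**Figure D1:**
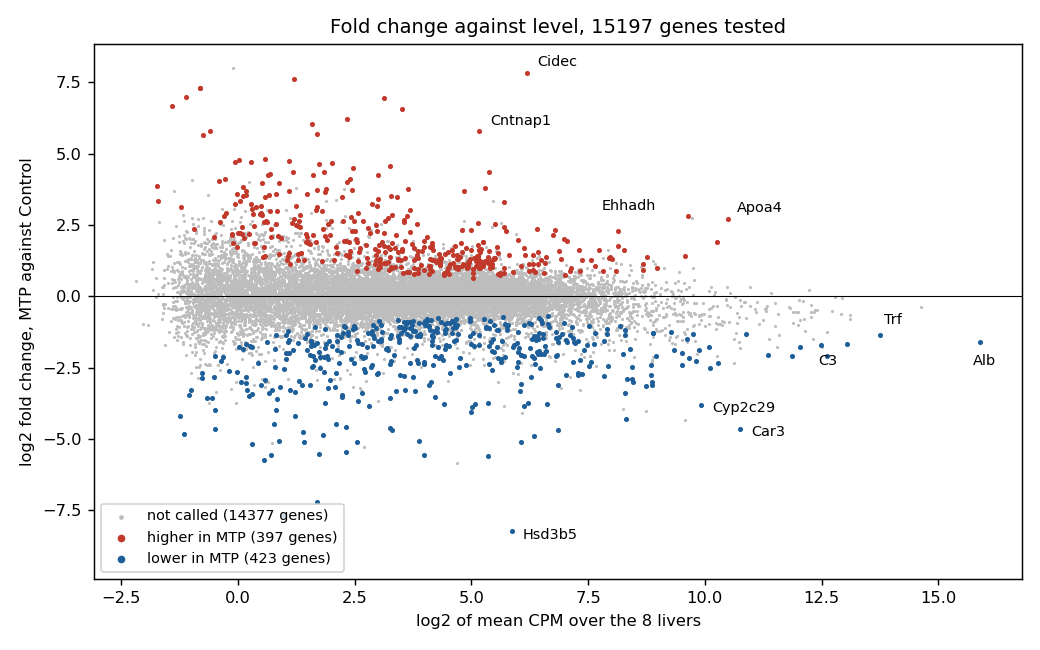
Log2 fold change of MTP against Control (vertical axis) plotted against the log2 of the mean CPM of the 8 livers (horizontal axis), 1 point per gene, with 397 called rises in red, 423 called falls in blue and all other genes in grey. Above 1000 CPM (about 10 on the horizontal axis) 13 genes were lower and 2 were higher, and the labelled genes include Cidec and Hsd3b5 near the extremes.

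The counts were spread over more genes in the MTP livers. The 50 genes with the most counts took 38.2% ± 1.95 of a Control library and 27.6% ± 2.57 of an MTP library, and 20350 ± 375 and 22500 ± 1410 genes had at least 1 count (SD, n = 4 each). In both measures the groups did not overlap (exact permutation test, two-sided, adjusted p = 0.0429 each over 6 measures, 0.0286 being the smallest raw p that 4 against 4 livers allow). Alb took 3.80% ± 0.606 of the MTP counts, and the groups were not shown to differ in this share (exact permutation test, adjusted p = 0.0686). The choice of scaling moved the whole comparison. With total counts in place of TMM the median of all genes went from 0.02 to 0.50 on the log2 scale and the split became 2610 higher and 321 lower genes, so each change is given relative to the TMM scale.

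The MTP livers were not alike. MTP 4 was the MTP liver nearest to the Control mean in 65.5% of the called rises and 50.1% of the called falls. The median difference from the Control mean over the rises was 1.71, 1.26, 1.70 and 0.87 in MTP 1 to 4, and over the falls −1.90, −1.40, −1.91 and −1.27. Leaving out 1 liver changed the number of calls in every case. Without MTP 4 there were 920 rises and 1089 falls. Without MTP 3 there were 110 and 134, without Control 3 there were 112 and 165, without Control 1 there were 113 and 179, and without MTP 1 there were 147 and 186. Without Control 4 the counts were 210 and 287, without Control 2 they were 233 and 329, and without MTP 2 they were 320 and 348. Among the 820 genes called with every liver kept, 200 (80 rises and 120 falls, 24.4%) were called in the same direction in all 8 fits with 1 liver left out.

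**Figure D2:**
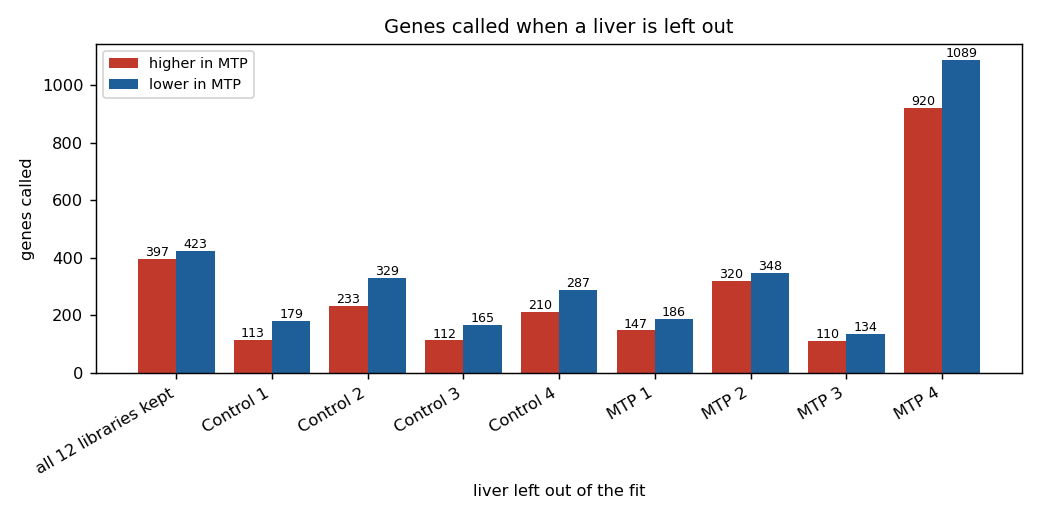
Number of genes called higher (red) and lower (blue) in MTP livers with all 12 libraries kept and with each of the 8 livers left out in turn; the vertical axis counts genes and starts at 0. The counts run from 110 and 134 without MTP 3 to 920 and 1089 without MTP 4.

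Read by gene list, the rises gathered in lipid burning and storage, p53 targets, histones and immature myeloid genes, and the falls in male-biased genes, Serpina antiproteases, cholesterol synthesis, cytochromes P450 and other hepatocyte products. Against a background of 2.61%, 37.5% of the tested lipid droplet genes, 36% of the histone genes, 32.7% of the fatty acid oxidation genes and 32.1% of the p53 targets were called higher. The histone share covers 25 tested of 66 members, and the filter on low counts favoured rises there. Against a background of 2.78%, 53.8% of the 13 listed Serpina antiproteases and 46.4% of the male-biased genes were called lower. The shares called lower were 34.6% for the cholesterol genes and 26.1% for the cytochromes P450. Nuclear genes of oxidative phosphorylation had no call among 91 tested (median log2 fold change 0.02; 6 had an unadjusted p under 0.05), but 10 were lower without MTP 4, and 8 were higher with total counts (median 0.46). The lists were compiled from textbook roles, but with earlier results of these data known. Their shares are therefore descriptive, and no test was run on a list.

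**Figure D3:**
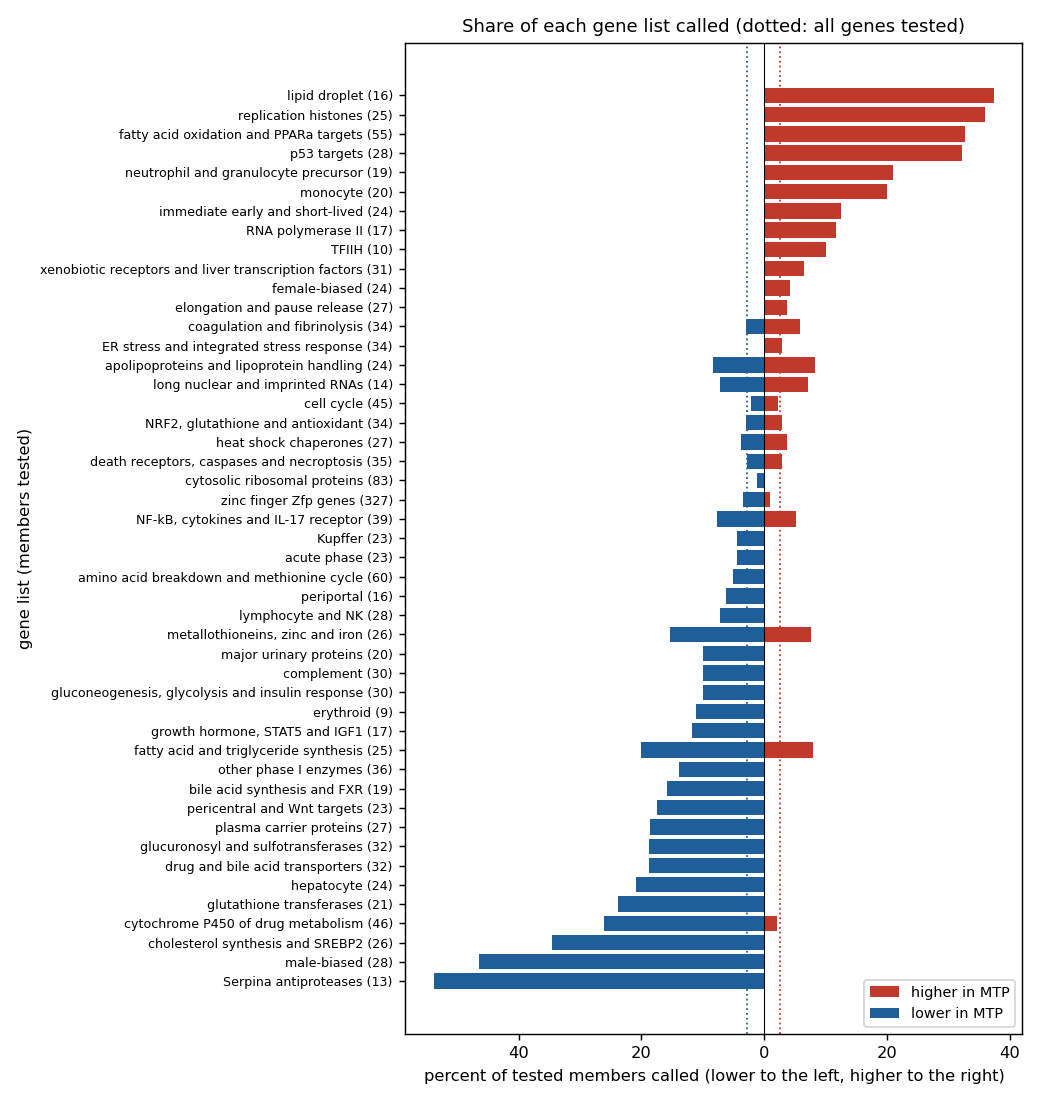
Percent of the tested members of each gene list (number tested in parentheses) called higher (red, to the right of 0) or lower (blue, to the left of 0) in MTP livers, with dotted lines at the shares of all genes tested, 2.61% and 2.78%. The lipid droplet, histone, fatty acid oxidation and p53 lists reach furthest to the right, and the Serpina, male-biased, cholesterol and cytochrome P450 lists furthest to the left.

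The per-liver medians showed where the livers parted. Cholesterol and male-biased genes had a median below the Control mean in each MTP liver (log2 differences of −1.92, −1.06, −2.03 and −1.45 for cholesterol genes in MTP 1 to 4, and of −2.58, −1.56, −2.56 and −2.77 for male-biased genes). Control 3 stood at 1.0 and 1.1 and Control 4 at −0.8 and −0.9 on the same scale, so the Control livers were spread as well. For hepatocyte markers the medians were −1.93, −0.86, −1.73 and −0.25, for the urea cycle −1.76, −0.51, −1.67 and −0.33 and for p53 targets 1.20, 0.66, 1.12 and 0.17; in each of these MTP 1 and MTP 3 differed most from the Control livers and MTP 4 least.

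**Figure D4:**
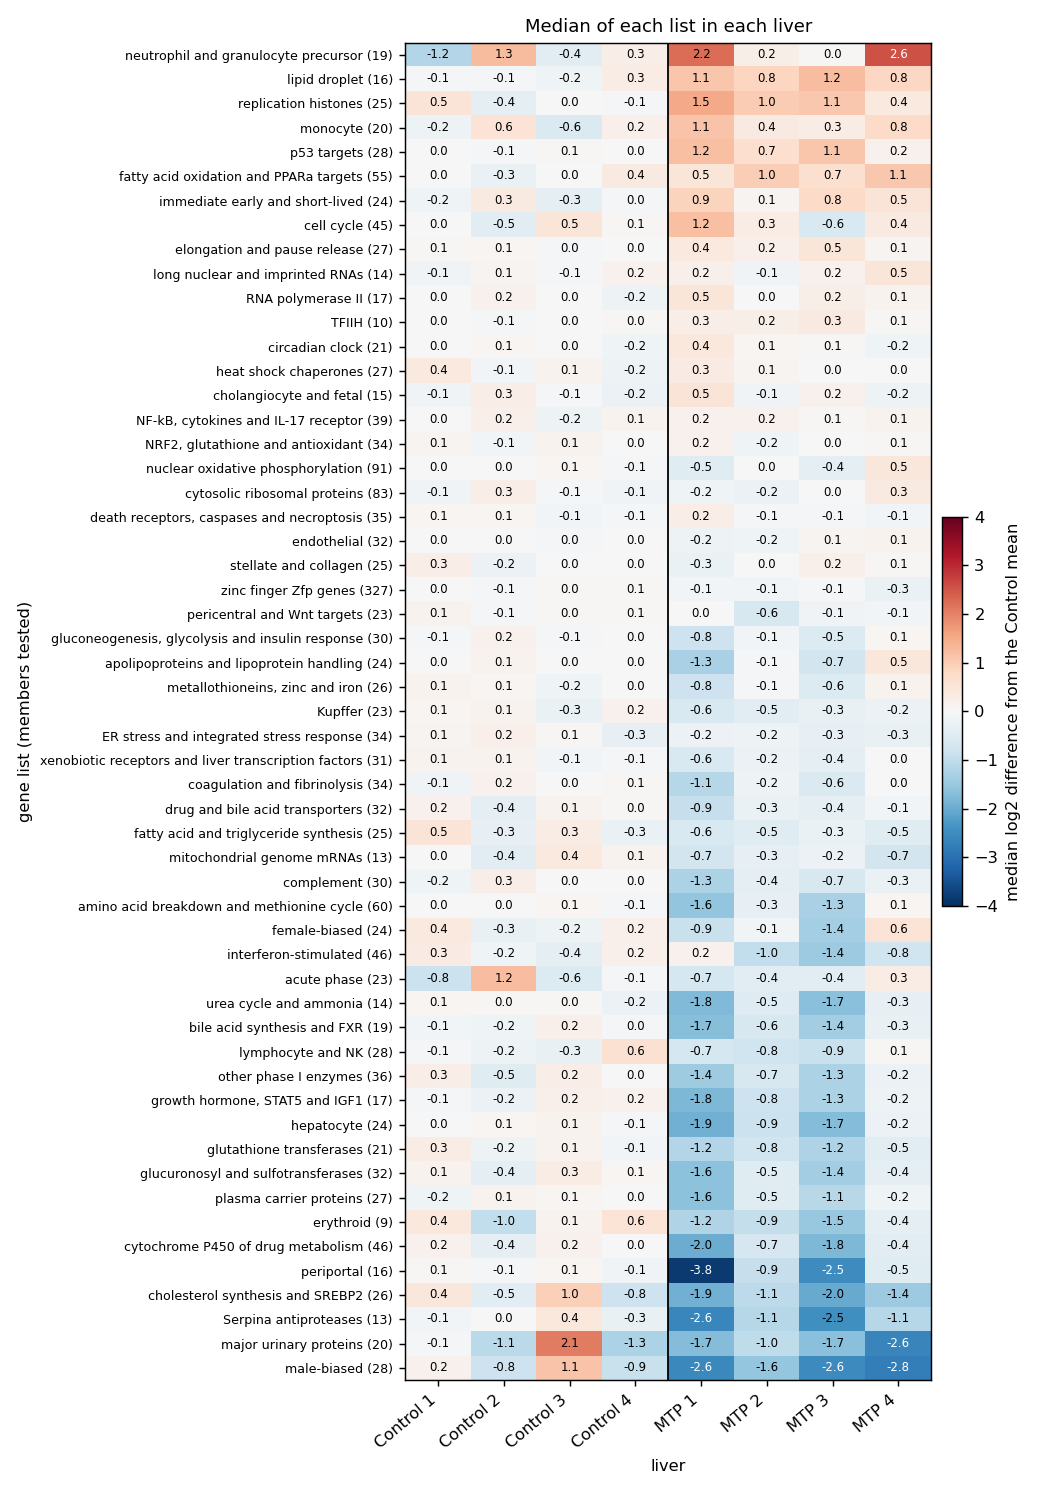
Median log2 difference from the Control mean over the tested members of each list (rows, number tested in parentheses) in each of the 4 Control and 4 MTP livers (columns), blue for lower and red for higher. Fatty acid oxidation and lipid droplet rows are red in all 4 MTP livers, hepatocyte, urea cycle and periportal rows are palest in MTP 4, and Control 2 stands out in the acute phase row.

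The drug's own target was measured first. Ercc3 stood at 21.3, 19.2, 23.8 and 19.9 CPM in the Control livers and at 44.2, 27.02, 37.5 and 25.6 CPM in the MTP livers. All 4 MTP livers lay above the Control livers, but the gene was not called (log2 fold change 0.68, SE 0.23, adjusted p = 0.104). Among the 10 TFIIH genes 1 was called, Gtf2h1, encoding the p62 subunit (log2 fold change 1.03, SE 0.24, adjusted p = 0.0282), and its call held in 1 of 8 fits with 1 liver left out, that without MTP 4. The median over TFIIH was 0.21. With total counts it was 0.70 and 5 of the 10 genes were higher, Ercc3 among them (log2 fold change 1.20).

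A core subunit of RNA polymerase II was higher in MTP livers. Polr2a stood at 55.6, 42.4, 55.5 and 51.1 CPM in the Control livers and at 233, 182, 292 and 106 CPM in the MTP livers; the gene encodes RPB1, which holds the catalytic centre. MTP 3 was highest and MTP 4 lowest among the MTP livers, all of them above every Control liver (log2 fold change 1.99, SE 0.36, adjusted p = 0.0106), and the call held with any 1 liver left out. Polr2l, a small subunit shared by the nuclear polymerases, was also higher (log2 fold change 1.54, adjusted p = 0.015), and the call held in 7 of 8 fits with 1 liver left out and was lost without Control 3. Of 17 subunit genes tested these were the only calls (median 0.21), while with total counts 6 were higher (median 0.70). Of 27 genes for elongation and pause release 1 was called, the elongation factor Ell (log2 fold change 1.05, adjusted p = 0.0384), whose groups overlapped and whose call held in 2 of 8 fits with 1 liver left out, those without Control 2 and MTP 4. Cdk9, a kinase that releases paused polymerase, had a log2 fold change of 0.46 and was not called. The median of the 27 elongation genes was 0.34. With total counts it was 0.85 and 13 were higher, Cdk9 among them (log2 fold change 0.93).

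Few short-lived transcripts were called, and those called rose. Of 24 immediate early and short-lived genes 3 were higher (12.5%, against 2.61% of all genes tested) and none was lower. The median was 0.72, and 7 of the 24 had a log2 fold change below 0. With 1 liver left out the rises ran from 0 without Control 3, MTP 1 or MTP 3 to 5 without MTP 4. With total counts 8 were higher (median 1.23). Atf3 stood at 4.85, 1.00, 1.49 and 2.22 CPM in the Control livers and at 38.3, 4.79, 21.5 and 4.25 CPM in the MTP livers. Atf3, a stress-induced transcription repressor, was high in MTP 1 and MTP 3, while MTP 2 and MTP 4 lay close to Control 1, and the groups overlapped (log2 fold change 2.84, SE 0.68, adjusted p = 0.0314; the call held in 3 of 8 fits with 1 liver left out, those without Control 1, MTP 2 and MTP 4). Gadd45a, a growth arrest and DNA repair gene, and Btg2, an antiproliferative gene, were higher with log2 fold changes of 1.41 and 1.62 (adjusted p = 0.0359 and 0.0487). The call of Gadd45a held in 2 of 8 fits with 1 liver left out, those without MTP 2 and MTP 4, and that of Btg2 was lost with any 1 of the 8 livers left out. Mcl1, a survival protein with a very unstable mRNA, had a log2 fold change of −0.18 (SE 0.18), and Myc and Fos had 0.98 and 1.28; none of these was called.

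Replication-dependent histone genes, whose mRNAs normally end in a stem-loop without a poly(A) tail, were called higher in 9 of 25 tested members and lower in none (median 1.06). The list has 66 members, and the others did not pass the filter on low counts. A member near 0 in the Control livers, such as H3c7, passed it only through other livers. It could be called higher but hardly lower, so the filter favoured rises in this list. The number called higher ran from 4 without Control 1 to 10 without MTP 4 with 1 liver left out. H2ac6 stood at 0.285, 0.0668, 0 and 0.139 CPM in the Control livers and at 8.66, 22.6, 6.73 and 2.04 CPM in the MTP livers. H4c8 stood at 0.913, 0, 0.426 and 0.486 CPM in the Control livers and at 7.67, 7.19, 15.6 and 11.9 CPM in the MTP livers. In both, the Control livers were near 0 and all MTP livers were above them, MTP 2 being highest for H2ac6 and MTP 3 for H4c8 (log2 fold change 6.20, SE 0.95, adjusted p = 0.00633 for the H2A gene H2ac6; log2 fold change 4.49, SE 0.87, adjusted p = 0.0129 for the H4 gene H4c8). H3c7, an H3 gene, was listed at 0 in every Control liver and at 1.76, 0.947, 1.16 and 0.700 CPM in the MTP livers. Calls of H2ac6, H4c8 and H3c7 held with any 1 liver left out. All 9 called members lie on chromosome 13, where 20 of the tested histone genes are. Because histone genes are near copies of one another, reads may have been divided between them, and their single values are uncertain.

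Zinc finger genes named Zfp, mostly repressors of the KRAB family, were lower in 11 of 327 tested members (3.36%) and higher in 3, close to the background shares, with a median of −0.17 that became 0.30 with total counts. The number of falls ran from 1 without Control 3, MTP 1 or MTP 3 to 22 without MTP 4 with 1 liver left out. Zfp358 was lower, with a log2 fold change of −1.30, and Zfp612 was higher, with 1.86 (adjusted p = 0.0152 and 0.00865), and both calls held with any 1 liver left out.

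Fatty acids enter mitochondria and peroxisomes as acyl carnitines and acyl-CoA for oxidation, a programme driven in liver by the nuclear receptor PPARα (Ppara). In MTP livers 18 of 55 genes of this list were higher and none was lower, with a median of 0.74. With 1 liver left out the count ran from 7 without Control 3 to 19 without Control 4. The called genes ran along the route, from carnitine uptake (Slc22a5, OCTN2) and carnitine acyl transfer (Crat, Cpt1b) through mitochondrial β-oxidation (Acadm, Acadl, Hadha, Hadhb, Eci1) to the peroxisome (Ehhadh, Eci2, Acot8, Pex11a).

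Crat stood at 27.4, 26.99, 27.3 and 28.4 CPM in the Control livers and at 98.5, 164, 151 and 154 CPM in the MTP livers. Crat, carnitine acetyltransferase, varied little among the Control livers, and the lowest MTP liver, MTP 1, was still well above them (log2 fold change 2.37, SE 0.23, adjusted p = 0.000773). Ehhadh stood at 199, 71.03, 236 and 291 CPM in the Control livers and at 1654, 1131, 1735 and 1111 CPM in the MTP livers. Ehhadh, the bifunctional enzyme of peroxisomal β-oxidation, was higher in every MTP liver than in any Control liver (log2 fold change 2.82, SE 0.43, adjusted p = 0.00636). Slc22a5 stood at 15.4, 11.3, 13.1 and 32.01 CPM in the Control livers and at 106, 63.3, 127 and 57.9 CPM in the MTP livers. Control 4 was the highest Control liver for this carnitine transporter and remained below every MTP liver (log2 fold change 2.30, SE 0.36, adjusted p = 0.00683). Calls of these 3 genes held with any 1 liver left out.

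Cpt1b stood at 0.114, 0.0668, 0.0710 and 0.0694 CPM in the Control livers and at 7.06, 4.18, 7.84 and 4.52 CPM in the MTP livers. Cpt1b, the muscle form of carnitine palmitoyltransferase 1, was near 0 in all Control livers and rose to several CPM in each MTP liver (log2 fold change 6.05, SE 1.20, adjusted p = 0.0145); the call held in 7 of 8 fits with 1 liver left out and was lost without Control 3. The liver form Cpt1a, at 283, 312, 334 and 569.8 CPM in Control and 399, 967, 530.5 and 1093 CPM in MTP livers, was not called (log2 fold change 1.00, SE 0.35, adjusted p = 0.113). MTP 1 and MTP 3 lay below Control 4 for Cpt1a, whereas MTP 2 and MTP 4 were the highest livers. Hadha and Hadhb, the α and β subunits of the mitochondrial trifunctional protein, lie next to each other on opposite strands of chromosome 5 (30118304 to 30155162 and 30155248 to 30184593, mm10). Both were higher, with log2 fold changes of 0.91 (SE 0.21) and 1.23 (SE 0.21), and adjusted p of 0.0283 and 0.00784; the call of Hadhb held with any 1 liver left out and that of Hadha held in 2 of 8 fits with 1 liver left out, those without MTP 2 and MTP 4.

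Acyl-CoA thioesterases, which release free fatty acids from CoA, lie side by side. Acot1 to Acot6 span 123 kb of chromosome 12 (83987861 to 84111349, mm10), and 4 of the 5 tested genes there were higher. Acot2 stood at 4.00, 3.07, 2.84 and 5.76 CPM in the Control livers and at 171, 31.7, 82.9 and 32.3 CPM in the MTP livers. MTP 1 stood highest and MTP 2 lowest among the MTP livers, all above the Control livers (log2 fold change 4.34, SE 0.55, adjusted p = 0.00282). Acot1 was higher with a log2 fold change of 3.30 (adjusted p = 0.0124), Acot3 with 2.63 (0.0432) and Acot4 with 1.13 (0.0333). Calls of Acot1 and Acot2 held with any 1 liver left out, while that of Acot3 held in 2 of 8 fits with 1 liver left out, those without MTP 2 and MTP 4, and that of Acot4 held in 2 of 8 fits with 1 liver left out, those without Control 4 and MTP 4. These genes are close copies, so the division of reads among them is uncertain.

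The PPARα targets Cyp4a10 and Cyp4a14 were not called, nor was the receptor. Ppara itself stood at 79.9, 86.2, 104 and 175 CPM in Control and 57.7, 196, 92.5 and 140.4 CPM in MTP livers and was not called (log2 fold change 0.13, SE 0.47). Cyp4a10, a fatty acid ω-hydroxylase, was above every Control liver in all MTP livers but varied widely among the Control livers and was not called (log2 fold change 2.76, SE 0.91, adjusted p = 0.0901). Its Control values were 20.6, 29.2, 165 and 651 CPM and its MTP values 1189, 1601, 921 and 2146 CPM. Cyp4a14 ran from 1.08 CPM in Control 1 to 772 CPM in Control 4, a range that held all 4 MTP livers.

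Among genes of lipid droplets, the stores of triglyceride in hepatocytes, 6 of 16 were higher and none was lower (median 1.12), and the count ran from 3 without Control 1, Control 3, MTP 1 or MTP 3 to 6 without MTP 2 or MTP 4 with 1 liver left out. Cidec stood at 0.400, 0.869, 0.426 and 0.833 CPM in the Control livers and at 248, 42.1, 255 and 34.5 CPM in the MTP livers. Cidec, which fuses lipid droplets and is scarce in lean liver, was under 1 CPM in every Control liver and had 2 high and 2 lower MTP livers, MTP 1 and MTP 3 against MTP 2 and MTP 4 (log2 fold change 7.83, SE 0.93, adjusted p = 0.00214). Plin5 stood at 31.7, 48.2, 32.5 and 47.7 CPM in the Control livers and at 115, 182, 208 and 197 CPM in the MTP livers. Plin5, a perilipin of oxidative tissues, was higher in all MTP livers (log2 fold change 2.13, SE 0.31, adjusted p = 0.00543). Fitm2, needed for droplet formation, was also higher (log2 fold change 1.58, adjusted p = 0.00784), and the calls of all 3 held with any 1 liver left out. The triglyceride lipase Pnpla2 and its activator Abhd5 were higher as well (log2 fold changes 1.36 and 1.29); the call of Pnpla2 held in 3 of 8 fits with 1 liver left out, those without Control 4, MTP 2 and MTP 4, and that of Abhd5 held in 3 of 8 fits with 1 liver left out, those without Control 2, MTP 2 and MTP 4. Plin2, the main droplet coat protein of hepatocytes, was above every Control liver in all MTP livers and missed the threshold (log2 fold change 1.12, SE 0.31, adjusted p = 0.0505).

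Cholesterol synthesis and uptake, which SREBP2 (Srebf2) switches on when sterols run low, went the other way. In MTP livers 9 of 26 genes were lower and none was higher (median −1.74, −1.25 with total counts). With 1 liver left out the number ran from 3 without Control 3 or MTP 3 to 12 without MTP 4. Insig1 stood at 369.9, 249, 362 and 98.9 CPM in the Control livers and at 28.2, 41.7, 43.3 and 53.6 CPM in the MTP livers. Insig1, which retains the SREBP complex in the endoplasmic reticulum, was lower in every MTP liver, and Control 4 was the lowest Control liver (log2 fold change −2.69, SE 0.44, adjusted p = 0.00711). The call of Insig1 held with any 1 liver left out. The enzymes called lower were Fdps, Mvd, Msmo1, Sc5d and Dhcr7, with log2 fold changes from −3.09 (Fdps) to −1.78 (Dhcr7), together with the cholesterol carrier Stard4 (−2.18). Hmgcs1, a synthase early in the route, had −2.08 and Srebf2 had −0.67, and these were not called.

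Promoters are shown for genes of 3 lists whose calls all went 1 way, the cholesterol, histone and fatty acid oxidation genes, as the 250 bases before the RefSeq start on GRCm38.p6, 5′ to 3′ on the gene's strand. Capitals mark CCAAT (or its reverse complement ATTGG, the letters of the NF-Y motif), CACGTG (an E-box) and TATAAA, searched on both strands with overlaps allowed. Insig1 (chr5:28071162-28071411, plus strand) and Sc5d, lathosterol oxidase (chr9:42264301-42264550, minus strand), come from the cholesterol genes called lower, H2ac6 (chr13:23683960-23684209, minus strand) from the histones called higher and Acot2 (chr12:83987611-83987860, plus strand) from the thioesterases called higher.
Insig1: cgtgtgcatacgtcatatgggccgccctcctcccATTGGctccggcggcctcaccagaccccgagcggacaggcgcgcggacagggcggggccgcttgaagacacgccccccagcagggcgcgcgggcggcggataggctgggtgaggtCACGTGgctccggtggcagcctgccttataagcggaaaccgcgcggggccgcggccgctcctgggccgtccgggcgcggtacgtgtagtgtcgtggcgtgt
Sc5d: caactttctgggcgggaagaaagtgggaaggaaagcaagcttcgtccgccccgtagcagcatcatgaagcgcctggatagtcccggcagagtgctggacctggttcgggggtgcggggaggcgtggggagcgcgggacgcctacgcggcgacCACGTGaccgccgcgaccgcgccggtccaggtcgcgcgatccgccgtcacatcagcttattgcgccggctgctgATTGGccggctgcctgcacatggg
H2ac6: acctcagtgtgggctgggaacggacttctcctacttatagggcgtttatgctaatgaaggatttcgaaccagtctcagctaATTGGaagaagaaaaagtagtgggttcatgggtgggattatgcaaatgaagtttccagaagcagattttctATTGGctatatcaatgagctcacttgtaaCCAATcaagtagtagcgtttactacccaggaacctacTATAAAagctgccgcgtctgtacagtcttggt
Acot2: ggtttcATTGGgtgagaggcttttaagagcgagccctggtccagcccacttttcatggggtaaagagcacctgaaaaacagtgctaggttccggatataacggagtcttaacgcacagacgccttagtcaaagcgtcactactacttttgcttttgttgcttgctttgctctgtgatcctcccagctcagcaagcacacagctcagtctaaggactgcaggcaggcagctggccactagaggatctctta
A promoter with a RefSeq start within 500 bases of the annotated gene start was at hand for 9463 of the tested genes. CCAAT occurred in 37.2% of them, in 82.4% of the cholesterol promoters (14 of 17), in 68.8% of the histone promoters (11 of 16) and in 41.7% of the fatty acid oxidation promoters (15 of 36). In 3 further lists whose calls all went 1 way, CCAAT was in 71.4% of the Serpina promoters (5 of 7) and 50% of the p53 target promoters (8 of 16). In the male-biased promoters the share was 29.4% (5 of 17). Among all genes called higher the share with CCAAT was 38.6% and among those called lower 43.4%. CACGTG was in 8.68% of all promoters and 17.6% of the cholesterol promoters (3 of 17). TATAAA was in 6.99% of all promoters, 10.2% of those called higher, 12.8% of those called lower and 31.2% of the histone promoters (5 of 16). CACCCCAC, the letters of a sterol response element, was in 2.64% of all promoters and 11.8% of the cholesterol promoters (2 of 17). A pair of AGGTCA with 1 base between, the idealised PPAR element, was in 0.0634% of all promoters and in 0 of the 36 fatty acid oxidation promoters. These are matches of letters, counted without a test. The promoters printed above are examples that all hold a marked motif, while that of Dhcr7, also called lower, holds none.

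Fatty acid synthesis was mixed: 5 of 25 genes were lower and 2 higher, with a median of −0.48 that was −0.01 with total counts; the falls ran from 2 without Control 1, Control 3, MTP 1 or MTP 3 to 6 without MTP 4 with 1 liver left out. Scd1 stood at 3158, 1072, 2465 and 885 CPM in the Control livers and at 590.5, 304, 138 and 294 CPM in the MTP livers. Thrsp stood at 129.9, 46.4, 114 and 13.1 CPM in the Control livers and at 3.36, 2.00, 8.78 and 8.67 CPM in the MTP livers. Scd1, the desaturase that makes oleic acid, and Thrsp, a carbohydrate-responsive regulator of lipogenesis, were lower in every MTP liver, with Control 2 and Control 4 the lowest of the Control livers (log2 fold change −2.52, SE 0.51, adjusted p = 0.0152 for Scd1; log2 fold change −3.73, SE 0.75, adjusted p = 0.0152 for Thrsp). Both calls held with any 1 liver left out. Fasn and Acly, fatty acid synthase and ATP citrate lyase, had log2 fold changes of −0.99 and −0.78 with overlapping groups and were not called. The lipins, which make diacylglycerol and also act as coactivators, rose: Lpin2 had a log2 fold change of 1.61 (SE 0.29, adjusted p = 0.00999), a call that held with any 1 liver left out, and Lpin3 had 1.14 (adjusted p = 0.0378), a call that held in 2 of 8 fits with 1 liver left out, those without MTP 2 and MTP 4. Elovl3, a male-biased elongase, was lower (log2 fold change −4.89, SE 1.28, adjusted p = 0.0432), and its call held in 2 of 8 fits with 1 liver left out, those without Control 2 and Control 4.

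In lipoprotein handling 2 of 24 genes were higher and 2 were lower (median −0.28, 0.12 with total counts), and 6 were lower without MTP 4. Lcat stood at 448, 618, 481 and 507 CPM in the Control livers and at 1721, 1884, 2468 and 1663 CPM in the MTP livers. Lcat, the enzyme that esterifies cholesterol on high-density lipoprotein, was higher in all MTP livers (log2 fold change 1.91, SE 0.33, adjusted p = 0.00865). Angptl8, an insulin-induced liver protein that restrains lipoprotein lipase, was lower with overlap of MTP 1 and Control 4 (log2 fold change −2.69, adjusted p = 0.0124). Both calls held with any 1 liver left out. Apoa4 was higher (log2 fold change 2.70, adjusted p = 0.0482), a call that was lost with any 1 of the 8 livers left out. Apob, Apoe and Apoa1, the main protein components of lipoproteins, had −0.05, −0.14 and −0.73 with overlapping groups and were not called.

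Cytochromes P450 oxidise drugs, steroids and fatty acids. Of 46 tested genes of drug metabolism 12 were lower and 1, Por, was higher (median −1.20, −0.82 with total counts), and the number of falls ran from 6 without Control 3 or MTP 3 to 20 without MTP 4 with 1 liver left out. Cyp2c29 stood at 1987, 986, 2321 and 1924 CPM in the Control livers and at 51.4, 129, 128 and 208 CPM in the MTP livers. Cyp1a2 stood at 1026, 755, 869 and 679.9 CPM in the Control livers and at 54.97, 80.2, 44.1 and 211 CPM in the MTP livers. Cyp2e1 stood at 3551, 7125, 5550 and 8010 CPM in the Control livers and at 532, 1205, 706 and 3262 CPM in the MTP livers. The Cyp2c enzyme Cyp2c29 and the caffeine oxidase Cyp1a2 were lower in every MTP liver (log2 fold change −3.80, SE 0.49, adjusted p = 0.00282 for Cyp2c29; log2 fold change −3.09, SE 0.47, adjusted p = 0.00633 for Cyp1a2), and both calls held with any 1 liver left out. Cyp2e1, which oxidises ethanol and paracetamol, was lower too, with MTP 4 just below Control 1 (log2 fold change −2.09, SE 0.55, adjusted p = 0.0444); its call held in 1 of 8 fits with 1 liver left out, that without MTP 4. In the Cyp2c cluster of chromosome 19, 6 of 13 tested genes were lower and all 13 had a negative log2 fold change, from −3.80 to −1.02.

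The enzyme that feeds electrons to all of these behaved differently. Por stood at 111, 153, 109 and 145 CPM in the Control livers and at 399.5, 427, 373 and 539 CPM in the MTP livers. Por, NADPH-cytochrome P450 oxidoreductase, was named here after its values were seen. All MTP livers lay far above the Control livers (log2 fold change 1.75, SE 0.32, adjusted p = 0.0105), and the call held with any 1 liver left out. Cyp3a11, a major oxidase of bile acids and drugs, stood at 6291, 1526, 6181 and 7789 CPM in Control and 1890, 3509, 1508 and 3941 CPM in MTP livers. Control 2 was the lowest Control liver and lay within the MTP range, and the gene was not called (log2 fold change −1.01, SE 0.46).

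Conjugation and hydrolysis genes gave falls and no rise: 5 of 36 other phase I genes, 5 of 21 glutathione transferases and 6 of 32 glucuronosyl and sulfotransferases were lower, with medians of −0.84, −0.93 and −0.95. With 1 liver left out the falls ran from 0 without Control 1, Control 3 or MTP 3 to 14 without MTP 4, from 4 without Control 1, Control 3 or MTP 3 to 8 without MTP 4 and from 3 without Control 1, Control 3, MTP 1 or MTP 3 to 9 without MTP 2. Gsta3 stood at 679, 238, 926 and 599.6 CPM in the Control livers and at 47.1, 94.4, 50.7 and 137 CPM in the MTP livers. Gsta3, an alpha-class glutathione transferase, was lower in each MTP liver (log2 fold change −2.89, SE 0.45, adjusted p = 0.00683). Sult5a1 stood at 12.8, 1.54, 8.23 and 3.54 CPM in the Control livers and at 0.123, 0.111, 0.0428 and 0.269 CPM in the MTP livers. The sulfotransferase Sult5a1 was at or below 0.269 CPM in all MTP livers (log2 fold change −5.55, SE 0.92, adjusted p = 0.00753). Gstp1, of the pi class and male-biased in mouse liver, was lower as well (log2 fold change −2.77, adjusted p = 0.0109). Calls of these 3 held with any 1 liver left out. Ugt1a1, which conjugates bilirubin, had 0.14 (SE 0.39) and was not called, and neither was Fmo5 (0.26).

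Among transporters, the uptake carrier Slco1a1 of the sinusoidal membrane was lower. Of 32 drug and bile acid transporters 6 were lower and none higher (median −0.46, −0.01 with total counts; 3 without MTP 3 to 10 without MTP 4 falls with 1 liver left out). Slco1a1 stood at 701, 229.9, 915 and 561 CPM in the Control livers and at 12.8, 68.8, 5.61 and 33.5 CPM in the MTP livers. The organic anion transporter Slco1a1 was lower in every MTP liver (log2 fold change −4.32, SE 0.75, adjusted p = 0.00892), and the call held with any 1 liver left out, as did those of the anion transporters Slc22a7 (log2 fold change −4.07) and Slc22a30 (−3.11). Slco1b2 and Slco2b1 were lower, with log2 fold changes of −1.88 and −1.92; the call of Slco1b2 held in 2 of 8 fits with 1 liver left out, those without Control 2 and MTP 4, and that of Slco2b1 held in 3 of 8 fits with 1 liver left out, those without Control 4, MTP 2 and MTP 4. The bile acid importer Slc10a1 and exporter Abcb11 had −1.50 and −1.12, and the canalicular pump Abcc2 0.86; these were not called.

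Of 19 genes of bile acid synthesis and its receptor FXR 3 were lower (median −0.76; 1 without MTP 3 to 6 without MTP 4 with 1 liver left out). Cyp7b1 stood at 54.3, 51.5, 371 and 79.4 CPM in the Control livers and at 6.52, 17.9, 6.94 and 9.96 CPM in the MTP livers. Cyp7b1, oxysterol 7α-hydroxylase of the alternative pathway and male-biased in mouse liver, was lower in all MTP livers, Control 3 being far above the other Control livers (log2 fold change −3.75, SE 0.76, adjusted p = 0.0152); the call held in 6 of 8 fits with 1 liver left out and was lost without MTP 1 and MTP 3. Akr1c6, a steroid dehydrogenase, was lower too (log2 fold change −2.43, adjusted p = 0.00705), with a call that held with any 1 liver left out. Fgfr4, the hepatocyte receptor for the gut hormone FGF15, had −1.51 (adjusted p = 0.0199) and a call that held in 6 of 8 fits with 1 liver left out and was lost without Control 1 and MTP 3. Cyp7a1, rate-limiting in the classical pathway, had a log2 fold change of −0.76 (SE 0.66) and Nr1h4, encoding FXR, 0.28 (SE 0.20); neither was called.

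The receptors and liver transcription factors behind these enzymes were called about as often as all genes tested (6.45% against 5.4%). Of 31 tested 2 were higher and none was lower (median −0.36, 0.08 with total counts). The rises became 0 without Control 1, Control 3, Control 4, MTP 1, MTP 2 or MTP 3, and falls appeared without MTP 4 (6 genes), without Control 2 or MTP 2 (1 each) and with DESeq2 (4). Nr1i2 stood at 66.3, 60.2, 50.3 and 45.8 CPM in the Control livers and at 87.1, 102, 96.01 and 133 CPM in the MTP livers. Nr1i2, the xenobiotic receptor PXR, was higher without overlap (log2 fold change 0.91, SE 0.24, adjusted p = 0.0414), but the call was lost with any 1 of the 8 livers left out. Hnf4a, the master regulator of hepatocyte genes, had a log2 fold change of −0.05 (SE 0.27, 0.38 with total counts), Cebpa −0.90 (SE 0.30), Ahr −0.68 (SE 0.26) and Nr1i3, the receptor CAR, −1.07 (SE 0.58); none was called.

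Male mouse liver owes its pattern to pulses of growth hormone acting through STAT5b. In these male livers 13 of 28 male-biased genes were lower and none was higher (median −2.34, −1.85 with total counts), and the count ran from 5 without MTP 3 to 13 without MTP 4 with 1 liver left out. Hsd3b5 stood at 108, 62.9, 267 and 30.6 CPM in the Control livers and at 0.369, 0.223, 0 and 0.969 CPM in the MTP livers. Hsd3b5, a male-specific steroid reductase, was close to 0 in all MTP livers (log2 fold change −8.24, SE 1.23, adjusted p = 0.00552). Keg1 stood at 465, 70.1, 280.3 and 79.4 CPM in the Control livers and at 1.97, 16.7, 4.37 and 11.7 CPM in the MTP livers. Keg1, a glycine acyltransferase-like gene, was lower in every MTP liver while Control 2 and Control 4 were the lowest Control livers (log2 fold change −4.69, SE 0.85, adjusted p = 0.0104). Both calls held with any 1 liver left out. Nudt7, a peroxisomal CoA hydrolase, was lower (log2 fold change −2.90, adjusted p = 0.0104) and its call held likewise. Female-biased genes gave 1 call: 1 of 24, Acot3, was higher and none was lower (median −0.59), with Cyp2b9 at −0.86 and Cux2 at −0.55, none called.

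Major urinary proteins, pheromone carriers that male liver secretes in bulk, were lower in 2 of 20 tested genes, Mup11 and Mup18 (log2 fold changes −1.88 and −3.33; the calls held in 1 and 6 of 8 fits with 1 liver left out, that of Mup18 being lost without Control 3 or MTP 1), with a median of −2.03 and every member below 0. Control 3 had a median log2 difference from the Control mean of 2.1 and Control 4 of −1.3, and near-identical copies make single Mup values uncertain. Within the growth hormone axis 2 of 17 genes were lower (0 without Control 1, MTP 1 or MTP 3 to 5 without MTP 4 with 1 liver left out). Prlr, the prolactin receptor, was lower without overlap (log2 fold change −1.65, adjusted p = 0.0218), and its call held in 4 of 8 fits with 1 liver left out, those without Control 2, Control 4, MTP 2 and MTP 4. Igf1 stood at 1179, 784, 946 and 689 CPM in the Control livers and at 149, 482, 116 and 497 CPM in the MTP livers. Igf1, the growth hormone-induced hormone, lay below every Control liver in all MTP livers and was not called (log2 fold change −1.53, SE 0.48, adjusted p = 0.0757); Ghr, the growth hormone receptor, had −1.14 (SE 0.35) and Stat5b −0.59 (SE 0.28).

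Secreted plasma proteins account for much of hepatocyte mRNA, and 5 of 27 carrier proteins were lower with none higher (median −0.98; 1 without MTP 3 to 8 without MTP 4 with 1 liver left out). Alb stood at 93880, 47780, 125400 and 100100 CPM in the Control livers and at 25840, 33310, 34220 and 28010 CPM in the MTP livers. Trf stood at 17830, 21100, 22340 and 18480 CPM in the Control livers and at 6791, 7266, 8248 and 8764 CPM in the MTP livers. Albumin was lower in all MTP livers, Control 2 being the lowest Control liver (log2 fold change −1.60, SE 0.39, adjusted p = 0.0329), and the call held in 2 of 8 fits with 1 liver left out, those without Control 2 and MTP 4. Transferrin (Trf), the iron carrier, was tight within both groups (log2 fold change −1.36, SE 0.29, adjusted p = 0.0202), and its call held in 6 of 8 fits with 1 liver left out and was lost without Control 3 and MTP 3. Car3 stood at 3262, 596, 7004 and 2436 CPM in the Control livers and at 63.2, 148, 106 and 212 CPM in the MTP livers. Car3, an abundant carbonic anhydrase of male liver, was lower in all MTP livers (log2 fold change −4.65, SE 0.69, adjusted p = 0.00543), a call that held with any 1 liver left out. Gc, the vitamin D carrier, and Ttr, transthyretin, had log2 fold changes of −0.02 (SE 0.30) and −0.84 (SE 0.35) and were not called.

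The Serpina antiproteases were lower in 7 of 13 listed genes (median −1.77, −1.38 with total counts; 2 without Control 3, MTP 1 or MTP 3 to 9 without MTP 4 with 1 liver left out). The family forms an 800 kb cluster on chromosome 12 (103614786 to 104414329, mm10) in which 20 genes were tested, 7 called lower and none higher. Over these 20 genes the median was −1.0 and the log2 fold changes ran from −5.17 to 2.31. The 13 listed genes, all with a negative log2 fold change, are thus a part of the family. Serpina1b stood at 8575, 8491, 11490 and 6626 CPM in the Control livers and at 1279, 3916, 1583 and 3942 CPM in the MTP livers. Serpina1b, an α1-antitrypsin gene, was lower in all MTP livers, MTP 1 and MTP 3 below MTP 2 and MTP 4 (log2 fold change −1.71, SE 0.42, adjusted p = 0.0323), and the call held in 3 of 8 fits with 1 liver left out, those without Control 4, MTP 2 and MTP 4. The Serpina1 copies are nearly identical, so their shares of reads are uncertain. Serpina12, the adipokine vaspin, and Serpina9 were lower with log2 fold changes of −5.11 and −5.17, both low in every liver, and their calls held with any 1 liver left out.

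The Control livers were spread widely in acute phase genes. Saa1 stood at 112, 9849, 67.3 and 146 CPM in the Control livers and at 369, 185, 1131 and 1694 CPM in the MTP livers. Serum amyloid A1 was far highest in Control 2, and the MTP livers lay between Control 2 and the others (log2 fold change −1.59, SE 1.32, adjusted p = 0.52; not called). Its fold change turned with Control 2 left out, to 2.96. Over 23 acute phase genes the Control 2 median was 1.2 above the Control mean on the log2 scale, and 1 gene was called. The median fold change of the list was −0.68, 0.36 without Control 2. Crp stood at 592, 864, 439.5 and 632 CPM in the Control livers and at 24.9, 118, 18.4 and 150.0 CPM in the MTP livers. C-reactive protein (Crp), only a modest responder in mice, was lower in all MTP livers (log2 fold change −3.02, SE 0.64, adjusted p = 0.0189), and the call held with any 1 liver left out. Of 30 complement genes 3 were lower (median −0.56; 0 without Control 1, Control 3, Control 4 or MTP 3 to 6 without MTP 4 with 1 liver left out). C3 stood at 10700, 20110, 10260 and 10500 CPM in the Control livers and at 2063, 3698, 3944 and 6540 CPM in the MTP livers. C3, the central complement component, was lower in all MTP livers, and Control 2 was again the highest liver (log2 fold change −1.67, SE 0.45, adjusted p = 0.0464); its call held in 1 of 8 fits with 1 liver left out, that without MTP 4. Of 34 coagulation genes 1 was lower and 2 were higher (median −0.42, 0.01 with total counts). With 1 liver left out the falls stayed at 1 except for 8 without MTP 4, and the rises ran from 0 without Control 1, Control 3, Control 4 or MTP 1 to 3 without MTP 4. F11, factor XI, was lower (log2 fold change −2.29, adjusted p = 0.0131) and its call held with any 1 liver left out, while F2, prothrombin, had −0.39 and F7 −0.60, neither called.

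Nitrogen metabolism differed between the MTP livers. Cps1 stood at 3881, 4186, 4271 and 3216 CPM in the Control livers and at 210.1, 2313, 449.6 and 2568 CPM in the MTP livers. Cps1, the first enzyme of the urea cycle, was lower in MTP 1 and MTP 3 than in MTP 2 and MTP 4, all of them below the Control livers, and was not called (log2 fold change −1.49, SE 0.64, adjusted p = 0.182). None of 14 urea cycle and ammonia genes was called (median −0.69; 7 with an unadjusted p under 0.05), and 6 were lower without MTP 4. Of 60 genes of amino acid breakdown 3 were lower and none higher (median −0.57; 1 without Control 1, Control 2, Control 3, Control 4, MTP 1 or MTP 3 to 20 without MTP 4 with 1 liver left out). Tat, tyrosine aminotransferase, had −2.04 (adjusted p = 0.0668) and Mat1a, which makes S-adenosylmethionine, −0.63 (SE 0.64); neither was called.

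In glucose metabolism 3 of 30 genes were lower (median −0.22, 0.24 with total counts), and the count ran from 1 without MTP 3 to 7 without MTP 4 with 1 liver left out. Gckr, a regulator of hepatic glucose phosphorylation, and glucose-6-phosphatase (G6pc) were lower, with log2 fold changes of −2.06 and −1.67; the call of Gckr held in 7 of 8 fits with 1 liver left out and was lost without MTP 3, and that of G6pc held in 4 of 8 fits with 1 liver left out, those without Control 2, Control 4, MTP 2 and MTP 4. Pck1, the key gluconeogenic enzyme, had −1.51 (SE 0.52) and Irs2, an insulin signalling adaptor, 1.30 (SE 0.39); neither was called. Of 21 clock genes none was called (1 had an unadjusted p under 0.05), and 3 were higher with total counts.

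By position in the lobule, 4 of 23 pericentral genes (Cyp1a2, Cyp2e1, Gulo and Lect2) and 1 of 16 periportal genes (Etnppl) were lower, with medians of −0.22 (0.26 with total counts) and −1.34. Pericentral calls ran from 1 without Control 1, Control 3, MTP 2 or MTP 3 to 7 without MTP 4 and periportal calls from 0 without Control 1, Control 3, Control 4 or MTP 3 to 7 without MTP 4 with 1 liver left out. The periportal medians in MTP 1 to 4 were −3.84, −0.91, −2.52 and −0.49. Glul, glutamine synthetase of the innermost pericentral cells, and the Wnt target Axin2 had log2 fold changes of −0.65 (SE 0.33) and −0.25 (SE 0.39); neither was called.

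Targets of the tumour suppressor p53, which responds to DNA damage and to stalled transcription, were higher in 9 of 28 tested genes and lower in none (median 0.83). The count depended on the livers kept and ran from 2 without Control 1, Control 3 or MTP 3 to 16 without MTP 4 with 1 liver left out. Cdkn1a stood at 16.8, 113, 28.8 and 58.7 CPM in the Control livers and at 213, 185, 259 and 185 CPM in the MTP livers. Phlda3 stood at 0.742, 0.468, 0.639 and 1.25 CPM in the Control livers and at 36.4, 4.40, 31.2 and 1.24 CPM in the MTP livers. For Cdkn1a, the cell cycle inhibitor p21, all MTP livers lay above the Control livers, and Control 2 was the highest of those (log2 fold change 1.95, SE 0.53, adjusted p = 0.0479; the call held in 2 of 8 fits with 1 liver left out, those without Control 2 and MTP 4). For Phlda3, a p53-induced repressor of Akt, MTP 1 and MTP 3 were high and MTP 4 lay within the Control range (log2 fold change 4.56, SE 0.96, adjusted p = 0.0185; the call held in 5 of 8 fits with 1 liver left out and was lost without Control 1, Control 3 and MTP 3). Eda2r, a death receptor family member, and Gtse1, a p53-binding mitotic protein, had log2 fold changes of 3.72 and 3.67 (adjusted p = 0.0156 and 0.0137) and calls that held with any 1 liver left out. Trp53 itself had 0.34 (SE 0.21) and Mdm2, its ubiquitin ligase and target, 0.86 (SE 0.29); neither was called. Pcna stood at 17.6, 14.03, 16.7 and 13.96 CPM in the Control livers and at 61.8, 38.04, 64.3 and 27.9 CPM in the MTP livers. Pcna, a DNA replication clamp that p53 also induces, was higher in all MTP livers (log2 fold change 1.62, SE 0.28, adjusted p = 0.00808), and the call held with any 1 liver left out.

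Cell death genes were called about as often as all genes tested (5.71% against 5.4%). Of 35 genes 1 was higher, Casp8 (log2 fold change 1.43, adjusted p = 0.0199), and 1 lower, Bmf (−1.08). The call of the initiator caspase Casp8 held in 5 of 8 fits with 1 liver left out and was lost without Control 1, Control 3 and MTP 3, and that of the BH3-only gene Bmf held in 1 of 8 fits with 1 liver left out, that without MTP 4. The integrated stress response gave 1 call in 34 genes (3 higher and 3 lower without MTP 4), the sestrin Sesn2 (log2 fold change 1.31, adjusted p = 0.0127, held with any 1 liver left out), while the chaperone Hspa5 had −0.24 and Atf4 −0.58, neither called. Hspa1b stood at 8.56, 12.3, 20.02 and 12.6 CPM in the Control livers and at 111, 96.6, 85.6 and 15.4 CPM in the MTP livers. The inducible chaperone Hspa1b was high in MTP 1 to 3, whereas MTP 4 lay within the Control range (log2 fold change 2.53, SE 0.51, adjusted p = 0.0151); its call held in 7 of 8 fits with 1 liver left out and was lost without Control 1. Other heat shock genes gave 1 call in the other direction, Fkbp4, a co-chaperone of steroid receptors (−1.80), and its call held in 2 of 8 fits with 1 liver left out, those without Control 4 and MTP 4.

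Genes of the antioxidant regulator NRF2 gave 1 call each way (34 tested, 1 higher, 1 lower, median 0.06). Without Control 1, Control 3, MTP 1 or MTP 3 it gave none, without MTP 4 it gave 3 higher and 6 lower, and with total counts 9 were higher and 0 lower (median 0.56). G6pdx stood at 11.2, 10.7, 8.16 and 10.6 CPM in the Control livers and at 112, 42.9, 63.6 and 24.4 CPM in the MTP livers. G6pdx, which supplies NADPH, was higher in all MTP livers (log2 fold change 2.58, SE 0.54, adjusted p = 0.0182), and the call held in 4 of 8 fits with 1 liver left out, those without Control 2, Control 4, MTP 2 and MTP 4. Gclm, the regulatory subunit of glutathione synthesis, was lower (log2 fold change −1.33, adjusted p = 0.0469), with a call that held in 2 of 8 fits with 1 liver left out, those without MTP 2 and MTP 4. Nqo1 and Hmox1, standard NRF2 targets, had 0.23 (SE 0.32) and 0.39 (SE 0.25) and were not called. Among 26 genes of metal handling 4 were lower, including the transferrin receptor Tfrc (log2 fold change −1.91) and the iron exporter ferroportin, Slc40a1 (−1.04), and 2 were higher. The falls ran from 0 without Control 3 or MTP 3 to 7 without MTP 4 with 1 liver left out. The call of Tfrc held in 3 of 8 fits with 1 liver left out, those without Control 2, Control 4 and MTP 4, and that of Slc40a1 held in 2 of 8 fits with 1 liver left out, those without Control 2 and MTP 4. Id1 stood at 3.88, 2.81, 2.06 and 4.10 CPM in the Control livers and at 21.7, 13.7, 31.8 and 14.3 CPM in the MTP livers. Id1, a target of the BMP signal that tells hepatocytes about iron, was higher in all MTP livers (log2 fold change 2.66, SE 0.47, adjusted p = 0.00992), and the call held with any 1 liver left out. Hamp, the iron hormone hepcidin, ran from 0.142 to 504 CPM among the Control livers and was not called. Metallothioneins Mt1 and Mt2 ranged similarly widely, with log2 fold changes of −1.60 (SE 1.11) and −1.25 (SE 1.16), not called.

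Hepatocyte markers took less of the MTP libraries. The 24 hepatocyte markers summed to 133000 to 206200 CPM in the Control livers and 47550 to 89940 CPM in the MTP livers without overlap; 5 were lower, none was higher and the median was −0.93. The number lower ran from 1 without Control 3 or MTP 3 to 13 without MTP 4 with 1 liver left out. The 32 endothelial markers summed to 1281 to 1421 and 1139 to 1406 CPM with no call (median −0.09, 0.40 with total counts), and 23 Kupffer cell markers to 1411 to 2057 and 1063 to 1576 CPM with 1 lower, 2 without MTP 4 (median −0.31, 0.17 with total counts). Stellate (25 genes) and cholangiocyte (15 genes) lists had no call; with total counts 4 stellate, 1 cholangiocyte and 3 endothelial genes were higher. The falls of hepatocyte products moved together with these hepatocyte markers, some of which belong to both kinds of list, and the part of hepatocyte content in them was not tested.

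Clec4f stood at 273, 284, 203 and 277 CPM in the Control livers and at 127, 120.4, 167 and 192 CPM in the MTP livers. The Kupffer cell lectin Clec4f lay below every Control liver in all MTP livers and was not called (log2 fold change −0.77, SE 0.37, adjusted p = 0.232). Cd74 stood at 396, 163, 251 and 335 CPM in the Control livers and at 102, 138, 113 and 115 CPM in the MTP livers. Cd74, the invariant chain of MHC class II, was lower without overlap (log2 fold change −1.29, SE 0.28, adjusted p = 0.0223), as was H2-Aa (log2 fold change −1.72); the call of Cd74 held in 4 of 8 fits with 1 liver left out, those without Control 2, Control 3, MTP 2 and MTP 4, and that of H2-Aa held in 2 of 8 fits with 1 liver left out, those without Control 2 and MTP 4. Cd3e and Nkg7, which mark T and natural killer cells, were not called and had −1.09 and −0.12.

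Genes of immature myeloid cells gave rises and no falls. Of 19 tested neutrophil and granulocyte precursor genes 4 were higher (21.1%). Of 20 monocyte genes 4 were higher (20%), against 2.61% of all genes tested. The neutrophil list has 28 members, and the others were not tested. A member near 0 in the Control livers could pass the filter on low counts through other livers, which favoured rises. With 1 liver left out the neutrophil count fell to 0 without Control 1 or Control 3. It was 4 without Control 2, MTP 2, MTP 3 or MTP 4. The monocyte count fell to 0 without Control 1, Control 3 or MTP 1 and was 4 without Control 2 or MTP 4. Mpo stood at 0.400, 11.02, 1.56 and 3.54 CPM in the Control livers and at 124, 14.9, 3.73 and 71.4 CPM in the MTP livers. Chil3 stood at 1.71, 12.3, 3.41 and 3.96 CPM in the Control livers and at 213, 11.2, 15.4 and 53.2 CPM in the MTP livers. Myeloperoxidase (Mpo) was high in MTP 1 and MTP 4, and MTP 3 lay between Control 2 and the other Control livers (log2 fold change 3.70, SE 1.01, adjusted p = 0.0494; the call held in 4 of 8 fits with 1 liver left out, those without Control 2, MTP 2, MTP 3 and MTP 4). The chitinase-like gene Chil3 of myeloid cells had the same 2 livers high, and MTP 2 lay below Control 2 (log2 fold change 3.78, SE 0.88, adjusted p = 0.0287; the call held in 4 of 8 fits with 1 liver left out, those without Control 2, MTP 2, MTP 3 and MTP 4). The other called genes of the neutrophil and precursor list were Elane, Ctsg and Ms4a3, with log2 fold changes of 3.76, 4.26 and 5.69. Their calls held in 3, 4 and 6 of 8 fits with 1 liver left out. All 3 calls were lost without Control 1 and without Control 3. S100a8 and S100a9, abundant in mature neutrophils, had 1.75 (SE 0.95) and 1.74 (SE 0.93) and were not called. The whole neutrophil list summed to 3683 to 11930 CPM in Control and 2575 to 7135 CPM in MTP livers, overlapping, and its median log2 differences were 2.22, 0.24, 0.04 and 2.56 in MTP 1 to 4.

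Inflammatory genes gave 2 rises and 3 falls among 39 (median 0.08). Ccr2, the chemokine receptor of monocytes, and Il17rb, a receptor for IL-25, were higher (log2 fold changes 1.27 and 1.29), and Il1b, Il18 and Cxcl12 were lower (−1.65, −1.18 and −1.14). Il17ra, the common IL-17 receptor chain, lay above the Control livers in all MTP livers and was not called (log2 fold change 0.65, SE 0.23, adjusted p = 0.104). With 1 liver left out the rises ran from 0 without Control 1, Control 3, MTP 1 or MTP 2 to 3 without MTP 4 and the falls from 0 without Control 1 or MTP 1 to 3 without MTP 2 or MTP 4. None of 46 interferon-stimulated genes was called (median −0.66; 18 had an unadjusted p under 0.05). In other fits some were lower, 7 with DESeq2, 5 with the replicate block and 4 without MTP 1, where the median was −1.23.

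Housekeeping lists gave few calls. Of 83 cytosolic ribosomal protein genes 1 was called (1.2%, against 5.4% of all genes tested) and the median was 0.00. Rps2 stood at 2.80, 114, 51.2 and 151 CPM in the Control livers and at 1.85, 1.11, 1.54 and 1.99 CPM in the MTP livers. That gene, Rps2, was low in Control 1 as well as in all MTP livers (log2 fold change −5.61, SE 0.85, adjusted p = 0.00595), a call that held with any 1 liver left out. Rps2 has many processed copies in the genome, and how reads shared with them were counted is not given in the sources used here. The 13 mitochondrial genome mRNAs had no call (median −0.54), and their share of counts was 6.81% in Control and 7.20% in MTP livers (exact permutation test, two-sided, p = 0.771). Of 45 cell cycle genes 1 was higher, Pcna, and 1 lower (4.44% called, near the 5.4% of all genes tested). Tk1 stood at 31.1, 27.7, 14.9 and 12.4 CPM in the Control livers and at 4.59, 3.51, 2.53 and 6.35 CPM in the MTP livers. Tk1, thymidine kinase, was lower in all MTP livers (log2 fold change −2.34, SE 0.38, adjusted p = 0.00711), and the call held with any 1 liver left out, while Mki67 had 0.51 (SE 0.54). Hba-a2 stood at 13.5, 2.40, 9.09 and 13.8 CPM in the Control livers and at 0.123, 0.279, 0 and 0.484 CPM in the MTP livers. The haemoglobin gene Hba-a2 was lower in all MTP livers (log2 fold change −5.47, SE 0.85, adjusted p = 0.00683); its near copy Hba-a1, with a log2 fold change of −1.66 (adjusted p = 0.121), was not called, and reads may be shared between them.

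Some of the largest changes lay outside the lists. Cntnap1 stood at 0.628, 1.20, 2.48 and 0.764 CPM in the Control livers and at 89.2, 52.9, 85.99 and 54.9 CPM in the MTP livers. Cntnap1, a contactin-associated protein best known from myelinated axons, was near 1 CPM in the Control livers and far higher in all MTP livers (log2 fold change 5.81, SE 0.74, adjusted p = 0.00282). Tcf24 stood at 56.8, 6.82, 27.1 and 33.1 CPM in the Control livers and at 0.738, 0.891, 0.471 and 0.484 CPM in the MTP livers. Tcf24, a transcription factor of the bHLH family, was lower in all MTP livers (log2 fold change −5.57, SE 0.56, adjusted p = 0.000773). Myom1, a sarcomere protein, and Cgref1, a secreted growth regulator, were higher with log2 fold changes of 4.11 and 4.36, and Slc26a4, an anion exchanger, was lower with −4.76. Hectd2os, a transcript antisense to Hectd2, was lower with −5.09; the strand used in counting is not given in the sources used here, so reads of Hectd2 cannot be told apart from it. Calls of these 6 genes held with any 1 liver left out. Kcnq1ot1, a long antisense RNA of the Kcnq1 domain, was higher (log2 fold change 1.95) and Rian, an imprinted noncoding RNA, lower (−2.19); the call of Kcnq1ot1 held in 1 of 8 fits with 1 liver left out, that without MTP 4, and that of Rian held in 2 of 8 fits with 1 liver left out, those without Control 1 and MTP 4. The nuclear RNAs Malat1 and Neat1 had 0.38 and 0.01 and were not called.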

How the data were processed

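RNA of mouse liver was sequenced by the authors, who deposited 1 table with gene counts and FPKM of 12 libraries. The published methods name Hisat2 and Stringtie, the submitters' processing notes name Bowtie 0.12.2 and mm10, and the annotation release and the use of strand are not given in the sources used here. The counts the authors deposited were raw whole numbers per gene, and the deposited FPKM values were used only in alternatives. Gene positions came from GENCODE M21 (55227 of 55487 identifiers matched), promoters from RefSeq (GRCm38.p6).

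Genes were filtered with filterByExpr (minimum count 10, minimum total 15), scaled by TMM and fitted with edgeR 4.0.16 (R 4.3.3) by a quasi-likelihood model of the 3 groups, with Benjamini-Hochberg adjustment over all 15197 genes; a call required adjusted p under 0.05 and a fold above 1.5. Alternatives used DESeq2 1.42.0 size factors and test, limma 3.58.1 with voom quality weights or on log2(FPKM + 1) and log2(FPKM + 0.1), a likelihood ratio test, total counts, a replicate block, a fit of the 8 livers alone, and each library left out. In counts simulated for MTP against Control (14901 genes), 14% of genes changed by log2 1 and 85% of those changed by log2 2 were called. Library measures were compared by exact permutation tests in Python 3.11.15.

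The members and gene lists were chosen with earlier results of these data known. The genes given by name were those the study names, list members marked for their role, up to 4 called members of each list with the smallest adjusted p, the 12 largest rises and falls without overlap at 5 CPM or more, and, by mean level, the top 6 called in each direction; list medians and counts cover all tested members. Por, Abhd5, Acadl, Acot1, Acot4, Acot8, Cxcl12, Dhcr7, Eci1, Eci2, Fdps, Hadha, Hadhb, Lpin3, Msmo1, Mvd, Pex11a, Slco2b1 and Stard4 fall outside this rule and were chosen after their values were seen. Some genes the rule names are not reported here. Reads shared between near copies (Acot, Cyp2c, Gstp, Mup, Serpina1, histone and haemoglobin genes) make single values of these genes uncertain.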

Additional observations from a re-analysis of the deposited data

Results flagged for a closer look

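In 114 groups of 4 livers (51 genes given liver by liver and 6 library measures, in both groups), Dixon's ratio of the gap at the end of the range to the whole range was compared with its 95% critical value, on log2(CPM + 0.5) for genes. Chance alone passes this in about 1 group of 20, and 7 groups did. Crat was lowest in MTP 1 among the MTP livers (ratio 0.84), Hspa1b was lowest in MTP 4 (0.869), and the share of counts taken by the top 50 genes was lowest in MTP 1 (0.913). Among the Control livers, C3 and Saa1 were highest in Control 2 (0.938 and 0.845), Cpt1b was highest in Control 1 (0.908) and Clec4f was lowest in Control 3 (0.884).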

How the results depend on the processing

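The 202 called genes of the lists and the naming rule kept their direction under every alternative that gave them a value. They were called on these same counts, so this outcome was nearly fixed beforehand. Of 199 genes of the rule that were not called 67 changed sign under some alternative. Of 56 list medians 12 changed sign with total counts, 7 with 1 liver left out and 17 under some alternative. The medians of Zfp genes, lipoprotein, glucose, pericentral and Kupffer lists are among those that turned positive with total counts. The count of 397 higher and 423 lower genes moved to 850 and 914 with DESeq2, to 734 and 806 with a likelihood ratio test, to 1236 and 1426 with voom and quality weights, to 2610 higher with total counts (321 lower), to 1567 and 259 on log2(FPKM + 1), to 950 and 152 on the same scale without a filter, and to 1993 higher on log2(FPKM + 0.1) (314 lower). With a replicate block it became 218 higher and 321 lower. In the fit of the 8 livers alone, which tested 14705 genes, it became 298 higher and 335 lower. In livers with the same replicate number the deviations from the group means had small correlations (0.0204, −0.187, 0.0366 and −0.0588). With 4 livers in each group this check cannot decide whether the number marks a pair or a batch. With 1 library left out the counts ran from 110 to 920 higher and from 134 to 1089 lower. Of the 202 called genes of the lists and the rule, 67 were called in all 8 fits with 1 liver left out. Calls lost were 123 without Control 3, 120 without MTP 3, 115 without Control 1, 110 without MTP 1, 74 without Control 4, 59 without Control 2 or MTP 2 and 9 without MTP 4. Other settings lost 83 on log2(FPKM + 1) without a filter, 72 with the replicate block, 64 in the fit of the 8 livers alone, 48 on log2(FPKM + 1), 43 without a filter on low counts, 38 on log2(FPKM + 0.1) and 24 with total counts, and 44, 22, 41 and 3 with MTP + CR library 1, 2, 3 or 4 left out; each of the remaining settings lost 10 or fewer. Small changes are at the limit of the design: in simulated counts 14% of genes changed by log2 1 were called, so a gene not called may have changed by that much.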
